A study of Mus musculus with 10 samples.

Results

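Intergenic CpGs far from genes were the CpG sites of chromosomes 1 to 19 that lay outside every gene of the GENCODE annotation and more than 10 kb from any annotated gene start. The counts of both strands were summed, and a site was kept with 10 or more reads in each of 10 animals. This gave 85450 CpG sites, or 9.58% of the 892267 autosomal CpG sites with that coverage. A further 229348 intergenic sites, 72.9% of those listed in at least 1 animal, met the position rule but not the coverage rule. The methylation level of a site is the percentage of its reads that were methylated.

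The sites were measured by reduced representation bisulfite sequencing (RRBS) of spermatozoal DNA from the epididymides of C57Bl/6 males. In the P-generation, 2 vehicle-control animals (C8 and C14) received 7.5% DMSO alone. The 3 treated animals (D10, D11 and D13) received decitabine at 0.1 mg/kg, likewise with 7.5% DMSO as vehicle. Both groups were injected into the abdomen 3 times a week, beginning at 7 weeks of age and lasting 7 weeks. In the F3-generation, which was itself untreated, 2 animals (F3C9 and F3C30) descended from vehicle-control animals and 3 (F3D1, F3D7 and F3D31) from decitabine treated animals. Per the study's pedigree, F3D1 and F3D31 share the ancestor D10, F3D7 descends from D11, F3C9 from C8 and F3C30 from C14, so that the F3 animals are not independent of the P animals or, in that pair, of each other.

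CpG methylation in mammals is copied at each cell division by a maintenance methyltransferase, and most CpGs between genes carry it. Methylated cytosine mutates readily to thymine, so methylated sequence has lost most of its CpGs, and CpG-dense stretches are usually CpG islands that escape methylation or young repeats that have not yet lost theirs. Male germ cells set their methylation before birth and carry it through meiosis into sperm. Decitabine is a nucleoside drug that, once built into DNA, traps the methyltransferases on it. RRBS reads fragments between MspI sites (CCGG), so it samples CpG-rich parts of the intergenic space.

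The following reference sequences (GRCm38, plus strand, 5′ to 3′) show the kinds of region in which the sites lay. Capitals mark the CpGs that belong to the 85450 sites. The region with the lowest methylation among dense regions lay 14562 bp from the start of Zfp395 and was CpG-rich and free of repeats. The middle 300 bases are printed.

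chr14:65343518-65343817: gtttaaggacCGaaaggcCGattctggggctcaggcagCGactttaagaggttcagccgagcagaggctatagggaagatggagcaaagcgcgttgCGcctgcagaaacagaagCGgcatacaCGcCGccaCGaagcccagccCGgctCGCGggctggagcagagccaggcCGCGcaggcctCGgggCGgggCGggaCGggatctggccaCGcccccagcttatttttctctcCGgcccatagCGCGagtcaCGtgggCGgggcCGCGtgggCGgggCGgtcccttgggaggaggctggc

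Dense regions with the highest methylation are represented by an unmasked region on chromosome 11 and by a region on chromosome 5 that lies wholly in soft-masked repeat sequence.

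chr11:114375526-114375730: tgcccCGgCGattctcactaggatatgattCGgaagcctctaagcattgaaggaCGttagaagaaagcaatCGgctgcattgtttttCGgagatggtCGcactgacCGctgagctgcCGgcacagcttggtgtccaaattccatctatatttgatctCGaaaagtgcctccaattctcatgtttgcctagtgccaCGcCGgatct
chr5:43319125-43319379: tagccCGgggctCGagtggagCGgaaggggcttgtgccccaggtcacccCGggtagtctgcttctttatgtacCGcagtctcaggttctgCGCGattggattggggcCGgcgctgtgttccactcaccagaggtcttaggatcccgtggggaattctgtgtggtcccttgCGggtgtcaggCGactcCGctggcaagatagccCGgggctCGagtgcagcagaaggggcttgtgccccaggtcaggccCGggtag

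Regions with the most sites called different between the groups are represented by chromosomes 11, 14 and 3 for the P-generation and by chromosome 16 for the F3-generation.

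chr11:110352514-110352627: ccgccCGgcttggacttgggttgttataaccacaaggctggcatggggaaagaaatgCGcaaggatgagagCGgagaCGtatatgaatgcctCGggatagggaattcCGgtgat
chr14:61711243-61711375: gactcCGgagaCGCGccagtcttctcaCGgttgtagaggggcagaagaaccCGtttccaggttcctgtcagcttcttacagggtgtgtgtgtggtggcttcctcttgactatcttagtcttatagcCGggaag
chr3:23014967-23015020: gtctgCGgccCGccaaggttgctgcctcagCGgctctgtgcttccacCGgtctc
chr16:90524271-90524322: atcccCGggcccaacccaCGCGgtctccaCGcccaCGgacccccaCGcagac

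The sites formed 31434 regions when sites within 100 bp of each other were joined. Of these regions, 10116 held a single site, 3999 held 5 or more and 485 held 10 or more. The median distance to the nearest gene start was 28850 bp, and 9224 sites (10.8%) lay more than 100 kb away. The nearest start belonged to a protein-coding gene for 29.7%, to a pseudogene for 28.3% and to a long noncoding RNA for 25% of the sites. Soft-masked repeat sequence held 29.7% of the sites, and 56.1% were the CpG of an MspI site. The median coverage was 44 reads per site and animal. The site farthest from any gene start was chr1:114576665, 612531 bp from the lincRNA gene 9330185C12Rik, with levels from 85.1% to 100% over the 10 animals.

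The libraries had summed coverages of CpG cytosines from 48903817 in D13 to 115158278 in F3D1. For a level near 50%, the 95% Wilson interval spanned 32% to 65.2% at D13's median of 31 reads and 38.6% to 61.4% at F3D1's median of 70 reads. Such intervals cover counting error only, since RRBS reads are not independent molecules. The library of C8 stood apart. Over the sites, Pearson's correlation of its levels with those of the other animals lay between 0.836 and 0.856, whereas the other animals correlated with each other more closely (highest 0.969, C14 with F3D1). Among the 24521 sites with a mean level of 20% to 80%, C8 was at exactly 0% or 100% in 11.7%, and the other 9 animals in 0.139% to 1.14%. As a check of the labelled cell type, CpGs within 500 bp of the starts of genes that are methylated in somatic cells but not in sperm were examined. For maternally methylated imprinted genes (4 of 9 names on the list had covered CpGs) the summed level ran from 6.6% in C14 to 27.7% in C8, and for germ-line genes (5 of 5) from 13.3% in F3D7 to 29.7% in C8. After C8, the highest levels for imprinted genes were 21.9% in D11 and 15.7% in F3C9. For germ-line genes they were 27.7% in D11 and 26.5% in both F3C9 and D10. Single genes did not all rank this way. C8 was highest at Peg3, Peg10, Dazl and Ddx4. At Mael it had 9.89%, against 29.7% in D10, and at Slc25a31 21.4%, against 36.4% in D11. The highest animal was D11 at Nnat, F3C9 at Grb10 and F3D1 at Tdrd1. The part of the C8 library in the results was not tested beyond giving the counts without it.

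Intergenic CpGs were mostly methylated. The mean level was 69.12% in C8, 68.69% in C14, 68.65% in D10, 68.71% in D11 and 68.14% in D13. In the F3-generation the control lineage had 68.99% (F3C9) and 68.01% (F3C30) and the decitabine lineage 69.37% (F3D1), 68.53% (F3D7) and 68.45% (F3D31). The groups overlapped, and the spread over all animals was small (68.7% ± 0.42, SD, n = 10). Sites above 80% made up 56.6%, sites below 20% made up 14.7% and the remaining 28.7% lay between. For comparison, the mean level was 65.1% ± 0.71 over the 140608 sites that lay within genes and more than 10 kb from a gene start, and 3.66% ± 0.15 over the 468963 sites within 1 kb of a gene start (SD, n = 10).

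The level depended on how many CpGs lay nearby. A site was called dense with 10 or more other listed CpGs within 100 bp and isolated with 0 or 1. The 21591 isolated sites had a mean level of 80.8% ± 0.57 and the 5958 dense sites 15.6% ± 0.45 (SD, n = 10). Dense sites were lower than isolated sites by 65.3 ± 0.85 percentage points, in 10 of 10 animals (exact sign-flip permutation test, two-sided, p = 0.00195, the smallest p that 10 animals allow; adjusted p = 0.00195 over 16 such comparisons). The mean level was 83.2% with 0 neighbours, 79.9% with 1, 73.6% with 2 to 4, 60.1% with 5 to 9, 28.9% with 10 to 14 and 2.95% with 15 or more. Of the isolated sites, 89.6% were CpGs of MspI sites, against 20.1% of the dense sites. CpGs of MspI sites were higher than other CpGs by 2.62 ± 0.62 points among isolated sites and by 2.75 ± 0.52 points among dense unmasked sites (exact sign-flip permutation test, p = 0.00195 and adjusted p = 0.00195 for each, higher in 10 of 10 animals; chosen after the data had been seen).

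This relation was largely that of sequence outside repeats. The split by soft-masking was chosen after the data had been seen. The 5213 dense sites outside masked repeats had a mean level of 6.53%, with animals between 5.98% (F3C30) and 7.35% (C8), and 91.8% of them were below 20%. The 745 dense sites inside masked repeats had a mean level of 78.7%, with animals between 77.4% (D13) and 79.7% (D10), and 77.3% of them were above 80%. Within dense sites, masked ones were thus higher by 72.2 ± 0.61 percentage points, in 10 of 10 animals (exact sign-flip permutation test, p = 0.00195, adjusted p = 0.00195). Inside masked repeats, dense sites were lower than isolated sites by only 5.99 ± 0.56 points, against 72.7 ± 1.17 points outside (exact sign-flip permutation test, p = 0.00195, adjusted p = 0.00195 for each). Masked sites had mean levels between 83.4% and 86.3% in each class from 0 to 14 neighbours, and the 88 masked sites with 15 or more neighbours were at 33.6%.

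**Figure D1:**
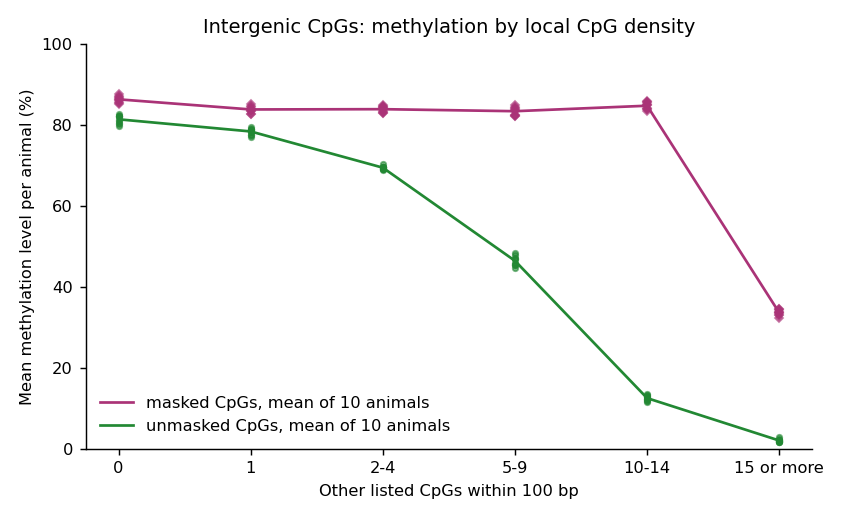
Mean methylation level (%) of intergenic CpGs by the number of other listed CpGs within 100 bp. Points are single animals, lines are means of 10 animals, and masked or unmasked refers to soft-masked repeats of the reference. Unmasked sites fall from 81.4% to 2.04%, while masked sites stay between 83.4% and 86.3% up to 14 neighbours.

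**Figure D2:**
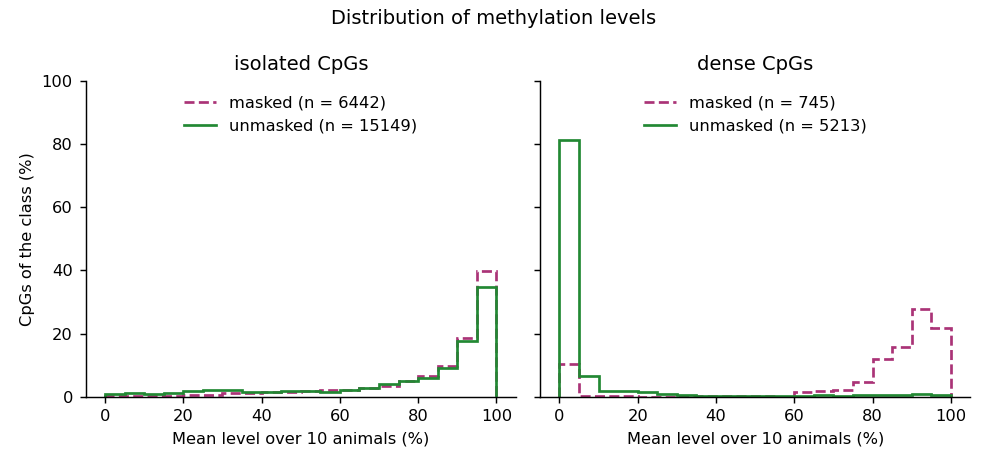
Share of sites (%) in bins of 5 percentage points of the mean level over 10 animals, for isolated (left) and dense (right) sites. Of dense unmasked sites, 81.3% lie in the lowest bin, whereas 49.5% of dense masked sites lie at or above 90%.

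The sequence around the classes differed as well. Within 100 bases on either side of the CpG, the mean GC content was 68.1% for dense unmasked and 58.6% for dense masked sites, and the ratio of observed to expected CpGs was 0.85 and 0.93. The letters GGGCGG, a GC box bound by Sp1-type factors, were present on either strand around 55.3% of dense unmasked, 16.5% of dense masked and 3.02% of isolated sites, against 40.4% of all covered autosomal CpGs. Sequences richer in CpG and GC hold these letters more often in any case, so the shares are descriptive.

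Dense regions fell into a low and a high class. Of 344 regions with at least 10 sites and a dense site among them, 255 had a mean level below 20%, 53 above 80% and 36 between. None (0) of the 255 low regions lay mostly in masked sequence, whereas 47 of the 53 high regions did. The nearest gene was protein-coding for 43.9% of the low and 9.43% of the high regions, and the median distance to it was 20545 bp and 48373 bp. These are counts over regions without a test.

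Most of the low regions were low in all animals. Each of the 10 animals was below 20% in 243 of the 255 low regions and below 5% in 197. The region near Zfp395, a zinc finger gene, was read in 30 sites and lay between 0% (C8) and 0.708% (F3C9). The next lowest regions were 25 sites 11288 bp from the start of Grb7, which encodes an adaptor protein of receptor tyrosine kinases, with 0% to 0.837%, and 11 sites 19020 bp from Ttc1, with 0% to 1.79%. The region with the most sites, 76 on chromosome 18 at 21431 bp from Igip, lay between 0.591% and 1.32%. Among the high regions, the 10 sites of chr18:13166667-13166807 lay between 95.6% and 99.4%, the 12 unmasked sites on chromosome 11 printed above between 93.5% and 98.7%, and the 14 masked sites on chromosome 5 between 94.4% and 98.2%.

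The median SD between animals over the 3999 regions with 5 or more sites was 4.03 points. Large spreads were found on chromosomes 10 (SD 22.9 points) and 16 (SD 21.9 points), in regions chosen for their spread, so no test is given. The 5 sites of chr10:66937311-66937361 had a mean level of 77.8% in C8, 46.6% in D11 and 33.7% in F3C9, and between 0% and 25.8% in the other animals. The 6 sites of chr16:90524276-90524317 had 73.6% in F3C9, 55.6% in C8 and 47.4% in D11, and between 10.8% and 25% in the others.

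The mean level rose with the distance from genes. It was 64.0% at 10 to 20 kb, 68.4% at 20 to 50 kb, 72.1% at 50 to 100 kb and 78.3% beyond 100 kb. The difference between the farthest and the nearest of these classes was 14.3 ± 0.60 percentage points, higher in 10 of 10 animals (exact sign-flip permutation test, p = 0.00195, adjusted p = 0.00195; chosen after the data had been seen). The composition changed along with it, as dense sites made up 9.29% of the sites at 10 to 20 kb and 3.95% beyond 100 kb, and masked sites 23.9% and 50.1%. Among isolated unmasked sites alone, the same difference was 2.36 ± 0.84 points (same test and p). The threshold at 10 kb marked no step, with 63.0% over the 1797 sites just inside it and 62.3% over the 1916 sites just outside, each within 500 bp. Sites whose lowest coverage was 10 or 11 reads had a mean level of 75.5%, and those left out at 8 or 9 reads 73.6%.

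Compared with sites of the same density class inside genes, isolated intergenic sites were less methylated. Isolated sites inside genes, likewise more than 10 kb from a start, had a mean level of 85.7%, and the intergenic ones were lower by 4.89 ± 0.99 percentage points in 10 of 10 animals (exact sign-flip permutation test, p = 0.00195, adjusted p = 0.00195; chosen after the data had been seen). The difference was 6.00 ± 0.77 points outside and 4.33 ± 0.97 points inside masked repeats. Dense unmasked intergenic sites were lower by 2.75 ± 0.12 points (6.53% against 9.28%, lower in 10 of 10 animals, same test and p). Among dense masked sites the order was the opposite, with 78.7% in intergenic sequence and 16.6% over 1133 sites in genes (difference 62.1 ± 0.61 points, higher in 10 of 10 animals, same test and p). These dense masked sites were not alike in sequence. Their median number of listed neighbours was 11 in intergenic sequence and 21 in genes, and their mean GC content 58.6% and 72.9%.

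The median SD of a site over the 10 animals was 7.21 percentage points, and counting of independent reads alone would give 4.43 points. Since RRBS reads are not independent molecules and C8 stood apart, these values do not separate variation between animals from that of the libraries. For sites at intermediate level it was 13 against 7.12 points, and for intermediate sites in genes 13.2 against 6.98. An SD above 20 points was found for 2462 sites (2.88%), against 1.18% of all covered autosomal CpGs and 2.27% of the sites in genes.

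The question of the study was whether decitabine changes sperm methylation in treated males and in their descendants. The mean level of all intergenic sites was 68.5% ± 0.31 (SD, n = 3) in decitabine treated and 68.9% ± 0.30 (n = 2) in vehicle-control animals of the P-generation, that is, they differed by -0.40 points (exact two-sided permutation test, p = 0.4, adjusted p = 0.72 over 9 tests). With 2 against 3 animals the smallest p this test allows is 0.1. In the F3-generation the means were 68.8% ± 0.51 (n = 3) and 68.5% ± 0.69 (n = 2), a difference of 0.28 points (exact permutation test, p = 0.7, adjusted p = 1). The differences of the generations differed by -0.68 points (exact permutation within generations, p = 0.28, adjusted p = 0.63).

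Dense sites differed by -0.04 points in the P-generation (15.7% ± 0.48, n = 3, against 15.8% ± 0.79, n = 2; exact permutation test, p = 0.9, adjusted p = 1). In the F3-generation the difference was -0.03 points (15.4% ± 0.17, n = 3, against 15.4% ± 0.60, n = 2; exact permutation test, p = 1, adjusted p = 1). The groups overlapped in both generations.

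Isolated sites had a mean level of 80.61% in C8 and 81.35% in C14, and of 80.22% in D10, 79.94% in D11 and 80.41% in D13. All 3 decitabine treated animals lay below both control animals. The difference was -0.79 points (exact permutation test, p = 0.1, the smallest it allows; adjusted p = 0.45). In the F3-generation the levels were 81.03% in F3C9 and 80.76% in F3C30, and 81.82% in F3D1, 81.25% in F3D7 and 81.04% in F3D31. All 3 animals of the decitabine lineage lay above both control animals (F3D31 only narrowly), and the difference was 0.47 points (exact permutation test, p = 0.2, adjusted p = 0.6). The differences of the generations differed by -1.26 points (exact permutation within generations, p = 0.02), which did not pass after adjustment over the 9 tests (adjusted p = 0.18). This test treats the generations as independent. Taken within lineages, as the level of the F3 animals minus that of their P ancestor, the value was -1.34 points over 2 lineages a group (exact permutation test, p = 0.333, the smallest it allows). Over all covered autosomal CpGs the same quantity was -0.53 points (p = 0.03, exact permutation). The order of the animals was not particular to isolated sites. All 3 treated P animals lay below both controls over all covered autosomal CpGs, and all 3 F3 animals above both over sites in genes. Among isolated sites in P, 1 of 3 (unmasked) and 2 of 3 (masked) lay below both controls. In F3, 3 (unmasked) and 0 (masked) lay above both.

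**Figure D3:**
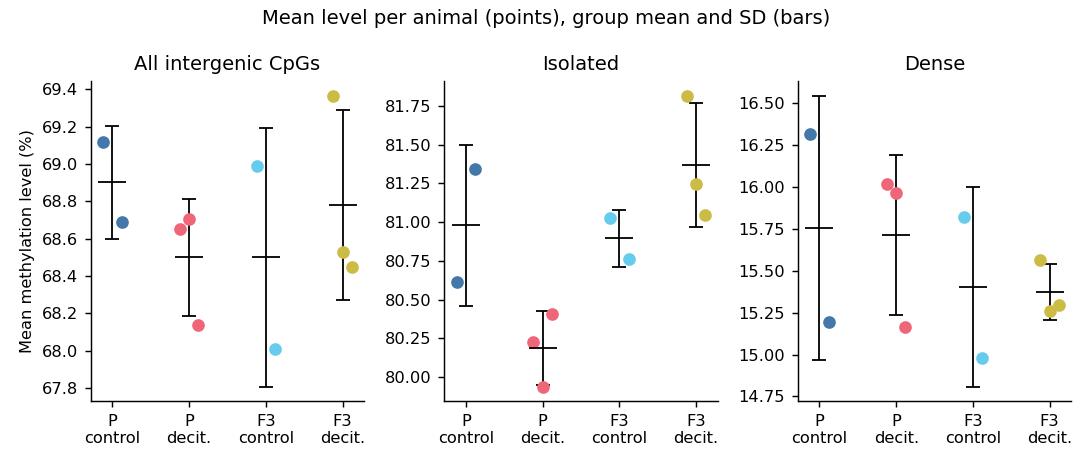
Mean methylation level (%) per animal over all, isolated and dense intergenic CpGs. Points are animals, horizontal bars the group mean and whiskers the SD, and the axes do not start at 0. Among isolated sites the 3 decitabine treated P animals lie below both controls and the 3 F3 animals of the decitabine lineage above both. The P order also held over all covered autosomal CpGs, and the F3 order over sites in genes.

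Single sites were tested with a logistic model on all 904354 covered CpGs of chromosomes 1 to 19, X and Y and called when the groups differed by at least 25 points with q below 0.01. The model has no term for variation between animals. In the P-generation 1233 of the 85450 intergenic sites (1.44%) were called, against 0.67% of all CpGs tested. Of these, 716 were higher in decitabine treated animals (background 0.316%) and 517 were lower (background 0.354%). The groups did not overlap in 904 of them (background 0.518%). In the F3-generation 472 sites (0.552%) were called, against a background of 0.216%. Here 320 were higher (background 0.147%), 152 lower (background 0.069%) and 384 had groups that did not overlap (background 0.169%).

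The excess over the background differed between classes of level. Among sites at a mean level of 20% to 80%, 3.97% of intergenic sites were called in the P-generation, against 4.46% of all such CpGs and 4.35% of those inside genes. In the F3-generation it was 1.66%, 1.60% and 1.67%. Sites above 80% were called in 0.44% of cases in the P-generation, against 0.532% of all such CpGs. Among sites below 20% an excess remained, with 46 sites (0.367%) called in P, against 0.0635% of all such CpGs and 0.212% of those inside genes. In the F3-generation 4 such sites (0.0319%) were called, against 0.00853% and 0.0343%. Among masked sites 291 (1.15%) were called in the P-generation, 89 of them lower, against 0.948% of all masked CpGs tested. Among dense sites 17 (0.285%) were called, 10 of them higher, against 0.0924% of all dense CpGs tested. In the F3-generation 14 dense sites (0.235%) were called, of which 10 were lower, against 0.0213% of all dense CpGs tested. These shares were not tested against each other.

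The calls depended on single control animals. Among the 1233 sites called in the P-generation, C8 was farthest from the median of the 5 animals in 819 (66.4%), and among the 472 of the F3-generation F3C9 was farthest in 328 (69.5%). Without C8, 458 intergenic sites were called (background 0.274%), of which 165 were among the 1233 and had the same direction. Without C14, 8178 were called (background 4.33%). Without F3C9, 180 were called (background 0.0711%), of which 40 were among the 472, and without F3C30 2462 (background 1.25%). With a term for variation between animals 0 sites were called in either generation by an F test, with 1599 sites in P and 1828 in F3 at an unadjusted p under 0.05. Over all 904354 CpGs tested, 10159 and 11194 were under that limit. With 5 animals a generation, the F test could hardly reach q below 0.01 over so many CpGs, so its 0 calls decide nothing. limma on log2 ratios likewise called 0 sites, with 7502 and 7057 of the 85450 sites at an unadjusted p under 0.05. The counts over all CpGs tested are not given for limma, so nothing about intergenic sites is read from them.

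Among the largest increases in the P-generation, the single sites that stayed called without any of the 5 animals were chr14:17142089 and chr12:77217336. At chr14:17142089, a masked site 20586 bp from the pseudogene Gm48312, the level was 31.8% in C8 and 41.8% in C14, and 91.4% in D10, 75.4% in D11 and 86.1% in D13. The pooled difference was 44.8 points (35 to 69 reads per animal, q = 5.02e-09, likelihood-ratio test over all CpGs), but in the F3-generation the levels overlapped between 60.6% and 82.0%. At chr12:77217336, 20789 bp from Fut8, a fucosyltransferase gene, it was 20.8% in C8 and 11.3% in C14 and 67.9%, 54.8% and 51.2% in D10, D11 and D13 (43.0 points, 41 to 56 reads, q = 1.19e-08, same model). In the F3-generation the levels were 55.2% and 32.4% in the control lineage and 52.6%, 36.4% and 25% in the decitabine lineage, so the groups overlapped.

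Without C8, 16 of the 19 named sites called in the P-generation were no longer called, with a single control animal left. All 19 kept their direction, 9 still differed by 25 points or more, and 10 shrank by over 1.5 times. The sites named as largest increases or decreases had groups apart by choice, so their direction could not change. Over all 1233 called sites, the direction changed at 75 without C8. At chr11:61086813, 39942 bp from Tnfrsf13b, a receptor gene of B cells, C8 had 9.52%, C14 80.6% and the decitabine treated animals 96.7% to 100% (47.0 points, and 18.3 points without C8). At chr5:65742785, 20736 bp from N4bp2, C8 had 98.5%, C14 40.4% and the decitabine treated animals 11.1% to 39.1% (-44.3 points, and -12.6 without C8). In contrast, chr15:99114901 differed by -51.1 points and by -40.9 points without C8, and chr7:136844137 by 47.0 and 42.0 points. At chr18:63494021 the difference of -40.6 points was -40.4 without C8 and -17.0 without D11.

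Without F3C9, none (0) of the 20 named sites called in the F3-generation was called, again with a single control animal left. All 20 kept their direction, 12 still differed by 25 points or more, and 12 shrank by over 1.5 times. Here too, sites named as largest increases or decreases could not change direction. Over all 472 called sites, the direction changed at 21 without F3C9. At chr1:51426772 the difference was -36.7 points and -38.2 without F3C9. A site that shrank is chr7:35916983, 78723 bp from the lincRNA gene Gm28514, with 72.4% in F3C9, 35.7% in F3C30 and 15.4% to 30.6% in the decitabine lineage (-38.4 points, and -13.6 without F3C9).

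Called sites mostly stood alone. The 1233 sites lay in 1074 regions, of which 122 held 2 or more and 27 held 3 or more called sites, and 8 regions held calls in both directions. The most called sites of the P-generation were found in the region 14803 bp from Abca5, an ABC transporter gene, where 5 of 6 sites were higher. Its mean level was 20.4% in C8 and 23.0% in C14, and 41.6% in D10, 67.0% in D11 and 35.7% in D13. In the F3-generation it was 46.0% and 28.0% in the control lineage and 29.3%, 12.2% and 22.9% in the decitabine lineage, with no site called. Likewise 5 of 9 sites of chr1:186409737-186409864 were higher in the P-generation, with region levels of 2.38% and 18.1% in controls and 21.5%, 44.6% and 43.1% after decitabine.

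In the masked region of chromosome 3, 4 of 4 sites were higher, with levels of 26.8% and 55.0% in controls and 92.4%, 64.6% and 72.2% after decitabine. On chromosome 14, 4 of 6 sites were higher, with 6.25% and 13.6% in controls and 53.8%, 31.2% and 37.0% after decitabine. In the F3-generation this region was at 35.3% and 31.5% in the control lineage and at 17.3%, 17.6% and 12.0% in the decitabine lineage, and no site was called there.

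In the F3-generation 411 regions held called sites, 43 of them 2 or more and 12 of them 3 or more, and none (0) held both directions. In the chromosome 16 region printed above, 6 of 6 sites were lower, with 73.6% in F3C9, 21.8% in F3C30 and 10.8%, 13.9% and 13.3% in the decitabine lineage. The control animals lay far apart here. In chr19:61198658-61198818, 5 of 14 sites were lower, with region levels of 37.6% and 24.9% in the control lineage and 21.6%, 17.7% and 16.7% in the decitabine lineage.

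Sites called in the P-generation had no common direction in the F3-generation. Over the 1233 sites called in P, the F3 difference taken in the direction of the P difference was -0.41 percentage points (exact permutation test, p = 0.8), and 597 sites (48.4%) had the same sign. The median size of the difference was 29.7 points in P and 6.67 points in F3. Over the 472 sites called in F3, 225 (47.7%) had the same sign in P.

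Called in both generations were 34 of the 85450 intergenic sites (0.0398%), against a background of 0.0104% of all CpGs tested. They made up 2.76% of the P and 7.20% of the F3 calls, against 1.55% and 4.82% over all CpGs tested. Of the 34 sites, 17 had the same and 17 the opposite direction. An example of the same direction with groups apart in both generations is chr7:136844137, 33228 bp from the pseudogene Gm9347, with 35.0% and 44.4% in P controls, 75.8%, 100% and 100% after decitabine, 35.7% and 35.7% in the F3 control lineage and 73.9%, 100% and 82.4% in the decitabine lineage. The differences were 47.0 and 44.3 points (q = 0.000237 and 0.00352, likelihood-ratio test), with 12 to 46 reads per animal. This site was picked out among the 10 named ones after its values had been seen. Likewise picked out were 4 neighbouring sites from chr6:143410274 to chr6:143410302, which were lower by 26.9 to 29.0 points in P and by 35.1 to 38.1 points in F3, with groups apart in both. At chr6:143410283, the P difference without C8 was -6.52 points.

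**Figure D4:**
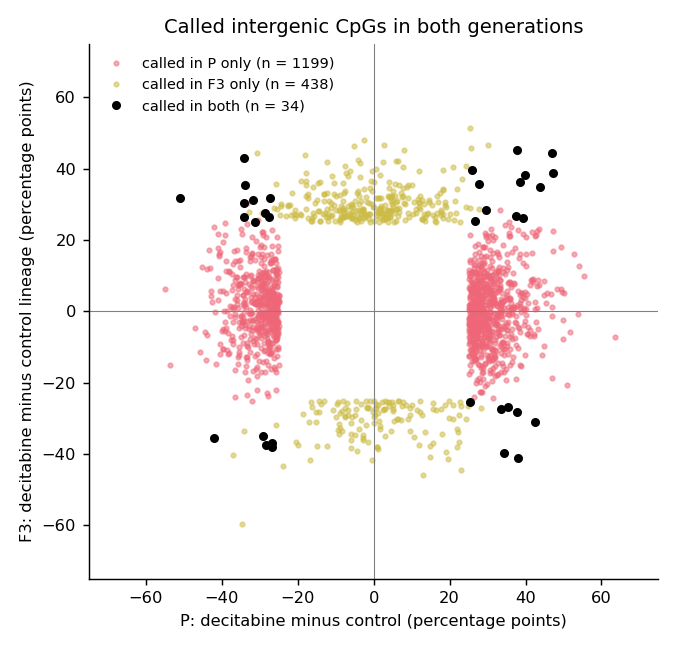
Decitabine minus control difference (percentage points) in the P-generation (x axis) and the F3-generation (y axis) for each called intergenic CpG. Sites called in P only lie around 0 on the F3 axis. The 34 sites called in both generations, from 31 regions, are split between the same (17) and the opposite (17) direction.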

How the data were processed

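RRBS data of spermatozoal DNA from 10 mice were analysed. Per the submitters' notes, the authors used CASAVA 1.8.2, Trim Galore 0.3.3, cutadapt 1.1 and Bismark 0.10.1, mapped to mm10 and deposited, per animal and CpG cytosine, the methylated and unmethylated read count, unfiltered and with strands separate. MspI digestion and the minimum of 10 reads decide which sites are seen, and the end bases that adapter trimming removes at MspI ends affect the MspI-site CpGs most.

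From these counts, strands were summed and sites were placed with GENCODE vM21 on GRCm38, the sequence of mm10. Masking is the lower case of that reference. Sites were tested by a logistic likelihood-ratio test with Benjamini-Hochberg q-values over 904354 CpGs, following the study's thresholds. methylKit and its q-values were not used here. Values per animal were compared by exact permutation tests, and levels within animals by sign flips. Replicates are separate animals.

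The sites, classes and lists were chosen with earlier results of these data known. Named were, per generation, up to 5 largest increases and 5 largest decreases among called sites with 20 or more reads in each animal and groups apart (1 per region), up to 10 sites called in both generations by size of the P difference, regions with the most calls (4 in P, 2 in F3), the 3 lowest and 3 highest dense regions, the 3 regions with the largest spread, the farthest site and the largest region. A result for 1 of these regions is not reported here.

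The script was tested on 904354 simulated sites. In the P design 43 of 100 changes of 30 points and 88 of 100 of 45 points were called, in the F3 design 62 and 95 of 100, and 0 unchanged sites. The simulation held no variation between animals, and a first requirement of higher recovery had failed. Alternatives were other coverage limits, thinning, other distances and density rules, an F test with overdispersion, Fisher's exact test, limma, other thresholds and leaving out each animal. Python 3.11.15, numpy 2.4.6, scipy 1.17.1, pandas 2.3.3, statsmodels 0.14.6, R 4.3.3 and limma 3.58.1 were used.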

Additional observations from a re-analysis of the deposited data

Results flagged for a closer look

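For isolated intergenic CpGs, the decitabine difference in the P-generation minus that in the F3-generation was -1.26 percentage points (exact permutation within generations, p = 0.02, adjusted p = 0.18 over 9 tests). It was drawn to attention because the test was of the difference between the generations itself, and it did not pass after adjustment. Leaving out an animal gave values between -1.63 (without C8, p = 0.025) and -0.90 (without C14, p = 0.05), with p = 0.075 without F3C30 (exact permutation in each case). Among unmasked isolated sites the value was -1.38 (p = 0.1, exact permutation) and among masked ones -0.99 (p = 0.42, exact permutation).

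At 3 of the 10 sites named for their calls in both generations, the differences had opposite directions. There an interaction term between group and generation passed in the logistic model (Benjamini-Hochberg over the 34 sites called in both generations). The sites had been chosen for calls in both contrasts and for opposite directions, so small p-values followed from the choice and are no support. The model also has no term for variation between animals. Another site with opposite calls was chr13:44359497, named for its F3 increase (-34.1 points in P and 43.1 points in F3). At chr15:99114901, a masked site 11015 bp from Spats2, the difference was -51.1 points in P and 31.9 points in F3 (adjusted p = 1.42e-13). The levels in P were 100% and 77.1% in controls and 50%, 37.9% and 12.5% after decitabine. In F3 they were 25.5% (F3C9) and 70.0% in the control lineage and 75.9%, 69.6% and 73.7% in the decitabine lineage, and without F3C9 the F3 difference was 3.91 points.

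At chr16:90521144, 29465 bp from the lincRNA gene Gm36001, the difference was 42.6 points in P and -31.0 points in F3 (adjusted p = 3.94e-16). It had 0% and 16.7% in P controls, 55.9%, 80% and 27.9% after decitabine, 61.2% and 38.1% in the F3 control lineage and 21.5%, 17.2% and 18.5% in the decitabine lineage. The groups did not overlap in either generation, and without F3C9 the F3 difference was -18.5 points.

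At chr5:148728033, 13807 bp from the lincRNA gene 2210417A02Rik, the difference was 37.9 points in P and -41.2 points in F3 (adjusted p = 8.74e-09). It had 14.8% and 50% in P controls, 72.7%, 86.7% and 66.7% after decitabine, 100% and 68.8% in the F3 control lineage and 43.6%, 43.8% and 38.9% in the decitabine lineage, with 15 to 55 reads per animal. Without C8 the P difference was 23.8 points, and without F3C9 the F3 difference was -26.1 points.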

How the results depend on the processing

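Several differences between groups in mean level changed sign with the setting. With all methylated reads divided by all reads, the P difference of all sites was 0.20 points, that of dense sites 0.24 points in P and 0.22 in F3, and the difference between generations 0.0203 points. Dense sites more than 50 kb from a gene start differed by 0.25 points in P and 0.16 in F3. Dense sites defined by 50 bp differed by 0.0109 points in F3, those defined by reference CpGs by 0.0751 in P, and those with 5 or more neighbours by 0.0101 in P and 0.0447 in F3. In unmasked sites alone (chosen after seeing the data) the dense F3 difference was 0.0399 points, and in masked sites alone the F3 difference was -0.0458 for all and -0.0210 for isolated sites. The aligned F3 difference of sites called in P was 1.00 points beyond 50 kb, 0.27 after thinning and 2.08 for differences of 40 points. Over the animals left out, it ran from -1.84 to 0.80, the dense difference from -0.60 to 0.52 in P and from -0.45 to 0.39 in F3, and the F3 difference of all sites from -0.21 to 0.77.

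Calls were 1233 in P and 472 in F3. With 20 reads they were 633 and 179, beyond 50 kb 353 and 141, for 10 points 3475 and 1942, for 40 points 91 and 33, and 0 and 0 both with overdispersion and with limma. Coverage and distance limits also changed the number of sites. Beyond 50 kb there were 15405 sites up to 100 kb and 9224 farther, out of 85450. Shares over all CpGs tested are not given for these settings, so the counts are not compared as rates. Thinning to the shallowest sample gave 168 in F3. Leaving out an animal gave 458 to 8178 in P and 180 to 2462 in F3. Dense sites stayed below isolated sites under every alternative run, by 37.2 points with neighbours counted in the reference, by 34.5 points with 5 or more against 0 neighbours and by 5.99 points in masked sites. The main tests between groups and generations were unpaired, because the labels give the groups no shared replicate numbers. Within the lineages of the study's pedigree (chosen after seeing the data; D13 has no descendant here), the difference between generations over all sites was -0.44 points. The depth limits single sites and single animals most, and 2 control animals per generation limit every comparison of groups.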
